A study of Mus musculus with 5 samples.

Results

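Translation factors are the proteins that bring the ribosome to a messenger RNA (initiation factors, eIF) and move it along the message (elongation factors, eEF). Their genes were taken as the protein-coding genes whose symbol begins with Eif or Eef and a digit, which gave 67 of the 49315 genes in the deposited tables. Of these, 8 carry the label 5′ terminal oligopyrimidine (TOP) mRNA (Eef1a1, Eef1b2, Eef1g, Eef2, Eif3e, Eif3f, Eif3h and Eif4b) and 59 do not. The messenger RNA came from mouse hearts, labelled as whole and of mixed cell types, and was enriched by its poly-A tail before sequencing. The HFHS group was 3 libraries of mice whose diet was high in fat and sucrose, and the chow group 2 libraries of mice kept on standard chow, each for 18 weeks. All 5 hearts came from mice injected once into a vein with iron dextran, in which iron is bound to a polysaccharide, and had been flushed with phosphate-buffered saline and taken 48 hours later. No library without iron enters the comparison, so it sets the diets side by side in iron-treated mice only. It cannot measure an effect of iron itself, nor tell a response to iron that differs between diets from an effect of diet. The sources used here do not give the strain, sex or age of the mice. The labels number the libraries but name no separate mice, so p-values measure the spread between libraries, which may be technical.

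In initiation, eIF2 carries the starting methionyl transfer RNA to the small ribosomal subunit, eIF3 holds the subunit in a state that can be loaded, and the cap-binding group eIF4F recruits the message. The factors eIF1 and eIF1A then guard the choice of the start codon, and eIF5 and eIF5B release the other factors and join the large subunit. In elongation, eEF1A delivers each aminoacyl transfer RNA, the eEF1B complex recharges eEF1A with GTP, and eEF2 moves the ribosome by a codon. A TOP mRNA starts with a C at its cap followed by an unbroken run of pyrimidines, and its translation is controlled by the kinase mTOR through the binding protein LARP1. Ribosomal protein genes are the best-known members of that class. Heart muscle is known for expressing a second eEF1A, from the gene Eef1a2, beside the widespread Eef1a1.

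Because the label rests on the first bases of the message, the DNA around the annotated start is shown for the 5 TOP members with an entry in RefSeq's promoter table (GRCm38.p6), and for the pair Eif2s3x and Eif2s3y discussed later. Each sequence runs 5′ to 3′ on the gene's strand from 10 bases before the annotated start through the 20 bases that begin with it. Capitals mark runs of a C followed by at least 4 pyrimidines (C or T), searched on the gene's own strand only.
Eef1a1, chr9:78481705-78481734, minus strand: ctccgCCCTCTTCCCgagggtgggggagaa
Eef1b2, chr1:63176821-63176850, plus strand: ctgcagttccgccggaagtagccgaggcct
Eef2, chr10:81176621-81176650, plus strand: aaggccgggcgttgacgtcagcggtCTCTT
Eif3f, chr7:108934405-108934434, plus strand: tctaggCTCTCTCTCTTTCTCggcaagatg
Eif4b, chr15:102073763-102073792, plus strand: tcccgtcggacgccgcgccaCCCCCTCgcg
Eif2s3x, chrX:94212632-94212661, minus strand: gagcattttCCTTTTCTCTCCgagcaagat
Eif2s3y, chrY:1010585-1010614, plus strand: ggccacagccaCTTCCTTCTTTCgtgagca
Read from the annotated start base onward, a C followed by at least 4 pyrimidines was found in 2 of the 52 members with an entry, Eif3f and Eif2s3x, and in 813 of 27025 genes of the whole table (3.008%). The runs of both genes also reach back before the start. That of Eef1a1, of 10 bases, crosses the start as well, but its base at the start is not a C, and in Eef1b2 the window held no run. Anywhere within 50 bases of the start, a run was found in 46 of 52 members and in 79.74% of the genes of the whole table. In both searches a gene was counted if any of its annotated starts had a run. These letters describe the annotation, since the 5′ ends of the messages were not measured in these libraries.

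Each library held between 14362766 and 17774735 counts, with at least 1 count in 19713 to 20278 genes. Levels below are counts per 1000000 (CPM) scaled with TMM, a method that sets library sizes by the bulk of the genes. Exceptions are the sums of cell markers and Y-linked genes, Xist and the limit set at 3 counts, which are CPM by total counts. Genes were tested with edgeR's quasi-likelihood test, and p-values were Benjamini-Hochberg adjusted over all 14221 genes tested, with a threshold of 0.05. Cell markers differed between the groups. All 7 of 7 macrophage, 7 of 7 fibroblast and 5 of 5 red blood cell markers and 5 of 7 endothelial markers were lower in HFHS hearts, with summed levels of 161 to 189 CPM against 414 to 485 CPM for macrophages, 715 to 752 against 1155 to 1237 for fibroblasts, 250.2 to 524 against 1484 to 1699 for red blood cells and 1121 to 1145 against 1869 to 2062 for endothelium. Of the 10 cardiomyocyte markers, 9 were tested, 3 rose and 3 fell, and their sum was 57627 to 60290.2 CPM in HFHS and 51251 to 57795 CPM in chow hearts. Among pericyte and smooth muscle markers 3 of 6 fell, with a sum of 858 to 897 CPM in HFHS and 1141 to 1187 CPM in chow hearts. Both tested markers of lymphocytes and other blood cells fell, and that list summed to 1.63 to 1.99 against 3.52 to 4.11 CPM. Of the 5 skeletal muscle markers, 2 were tested and 1 fell. The 3 others had too few counts to be tested, with 2 at 0 in all libraries and 1 in some. The list summed to 1373 to 1528 against 1779 to 1797 CPM, a sum that rests on the 2 tested genes. Whether their reads came from skeletal muscle was not tested. Fat markers summed to 0.181 to 0.531 CPM in HFHS and 0 to 0.0577 CPM in chow hearts. The part of these markers in the results below was not tested, and in whole-tissue RNA a smaller number of cells of a type cannot be told apart from less RNA per cell.

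Of the 67 factor genes, 64 had enough counts to be tested: HFHS hearts had higher levels of 15 and lower levels of 18, and 31 did not pass. Among all genes tested 38.1% passed, 19.4% as higher and 18.7% as lower, so the share of lower calls was larger among the factors and the share of higher calls was close to that of all genes. The median log2 fold change (HFHS minus chow) was -0.11 over the factors and -0.01 over all genes. With libraries scaled by total counts alone, the split went from 15 higher and 18 lower to 10 higher and 28 lower, while the median of all genes moved to -0.11. The HFHS and chow libraries did not overlap for 19 factors on the higher side and 27 on the lower side. Among all genes tested 58.5% did not overlap, 29.2% on the higher and 29.4% on the lower side. Among factors past the threshold, a fitted change of at least 1.5 fold was reached by 3 genes that rose and 4 that fell. The untested genes were Eif4e1b, an oocyte cap-binding protein with no count in any library, Eif4ebp3 with 3 to 8 counts, 67.34% of whose exon bases are also exon of Ankhd1, and the methyltransferase gene Eef1akmt3 with 0 to 5 counts. For a gene without a count the upper limit, set at 3 counts, was 0.169 to 0.209 CPM by library, for counting error alone.

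**Figure D1:**
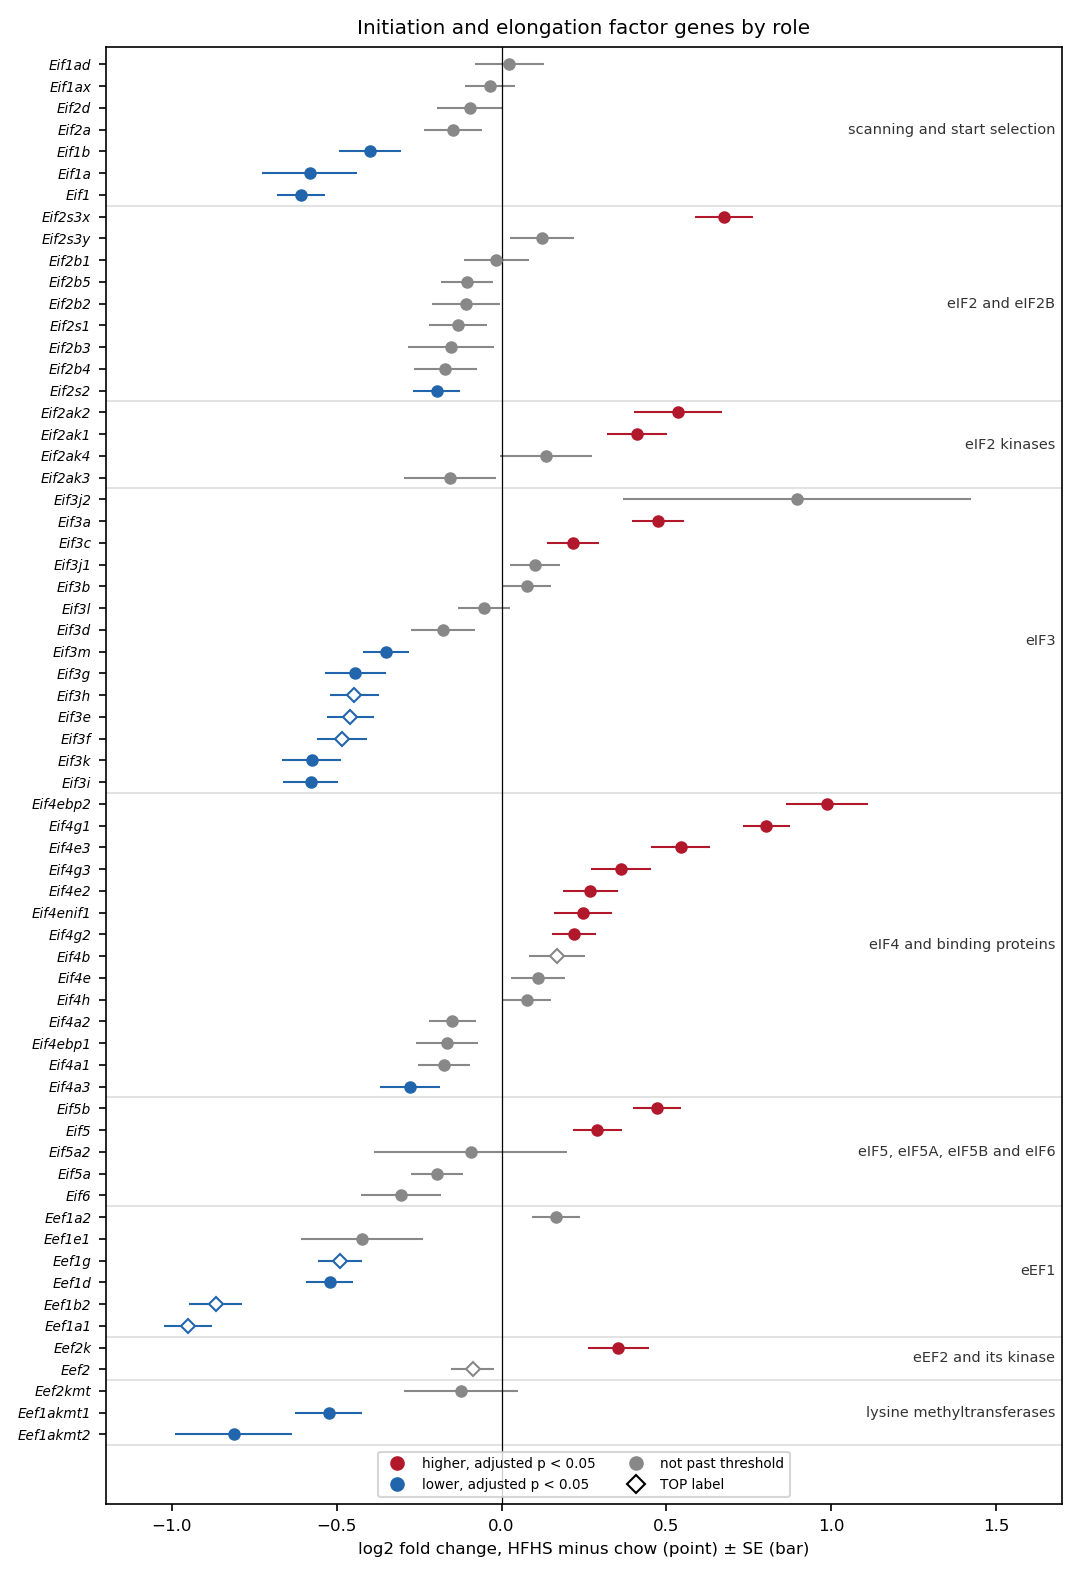
Log2 fold change of each of the 64 tested factor genes (horizontal axis, HFHS minus chow; points, with bars of ± 1 SE), grouped by role; red and blue mark genes higher or lower at an adjusted p of 0.05, grey the others, and open diamonds the TOP label. The 7 higher genes of the eIF4 group lie to the right, and 7 of the 14 eIF3 genes and 4 of the 6 eEF1 genes lie to the left.

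Among the 8 factors with TOP mRNAs, 6 were lower, none was higher and 2 did not pass, with a median log2 fold change of -0.47. Among the 56 tested factors without the label, 15 were higher and 12 lower, with a median of -0.09. Over all genes tested 19.4% were higher and 18.7% lower, and these shares are also the background for the counts by role below. The split of the factors without the label was 12 higher and 15 lower with upper quartile scaling and 10 higher and 21 lower with total counts. The 8 TOP genes took 0.227% ± 0.00435 (SD, n = 3) of all counts in HFHS and 0.328% ± 0.0137 (SD, n = 2) in chow hearts, a difference of 0.101 percentage points. The other factors took 0.602% ± 0.0043 and 0.617% ± 0.0148, a difference of 0.0152 points. Eef1a1 alone accounted for 0.0589 points of the difference. No test was made on these shares.

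The elongation factor eEF1A showed the largest fall among the factors. Eef1a1 (ENSMUSG00000037742, chromosome 9 from 78478449 to 78489151, GRCm38) stood at 1183 and 1018 CPM in the chow libraries and at 580.1, 565 and 563 CPM in the HFHS libraries. The 2 groups were far apart, and the chow libraries differed from each other by more than the HFHS libraries did. The log2 fold change was -0.95 (SE 0.0733), a 1.93-fold lower mean, with an adjusted p of 3.99e-07. Its muscle and nerve paralog Eef1a2 (chromosome 2 from 181147653 to 181157014) was at 809 and 929 CPM in chow and at 984, 972 and 966 CPM in HFHS hearts. All HFHS libraries lay above both chow libraries, but the log2 fold change of 0.16 (SE 0.0725) did not pass (adjusted p 0.0888). Eef1a2 passed without chow replicate 2, at 0.27 with an adjusted p of 0.00848. The 2 genes together fell from 1969 ± 31.3 CPM (SD, n = 2) to 1543 ± 18.5 CPM (SD, n = 3).

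The 3 subunits of the eEF1B exchange complex were lower too. Eef1b2, the alpha-type nucleotide exchange subunit (chromosome 1 from 63176825 to 63180486), was at 175.5 and 169 CPM in chow and at 99.99, 98.3 and 85.3 CPM in HFHS hearts. Every HFHS library was well below both chow libraries, with a log2 fold change of -0.87 (SE 0.0808, adjusted p 2.21e-06). Eef1g, the structural gamma subunit (chromosome 19 from 8967041 to 8978479), was at 262 and 260.0 CPM in chow and at 181, 186 and 191 CPM in HFHS hearts, a log2 fold change of -0.49 (SE 0.0678, adjusted p 6.97e-05). Eef1d, the delta exchange subunit, has no TOP label and was at 140.5 and 143 CPM in chow and 101, 101 and 94.2 CPM in HFHS hearts, a log2 fold change of -0.52 (SE 0.0717, adjusted p 6.64e-05). In each of these genes the libraries within a group lay much closer together than the groups did. The sixth eEF1 gene, Eef1e1, is 1 of the 67 factors but not among the genes set to be named, and it is named here after its values were seen. It encodes a part of the complex of transfer RNA synthetases and was at -0.42 (adjusted p 0.0879), so 4 of 6 eEF1 genes were lower and none higher.

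Eef2, the translocation factor, carries the TOP label but did not pass. It was at 1024 and 1039.9 CPM in chow and at 969, 1009 and 935 CPM in HFHS hearts, and its log2 fold change was -0.09 (SE 0.0658, adjusted p 0.32). The groups did not overlap, yet the gap was smaller than the spread among the HFHS libraries; with libraries scaled by total counts the change was -0.18 with an adjusted p of 0.0375. Its inhibitory kinase Eef2k was at 31.1 and 27.9 CPM in chow and 39.2, 38.2 and 35.8 CPM in HFHS hearts, a log2 fold change of 0.35 (SE 0.093, adjusted p 0.00807). Without chow replicate 2 the adjusted p of Eef2k was 0.0696. Of the 3 tested lysine methyltransferases of elongation factors, 2 fell. Eef1akmt2, which modifies eEF1A, fell from 7.42 and 7.05 CPM in chow to 3.93, 4.52 and 3.92 CPM, a log2 fold change of -0.81 (SE 0.177, adjusted p 0.00243). Eef1akmt1, another eEF1A methyltransferase, changed by -0.52 (adjusted p 0.00102).

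**Figure D2:**
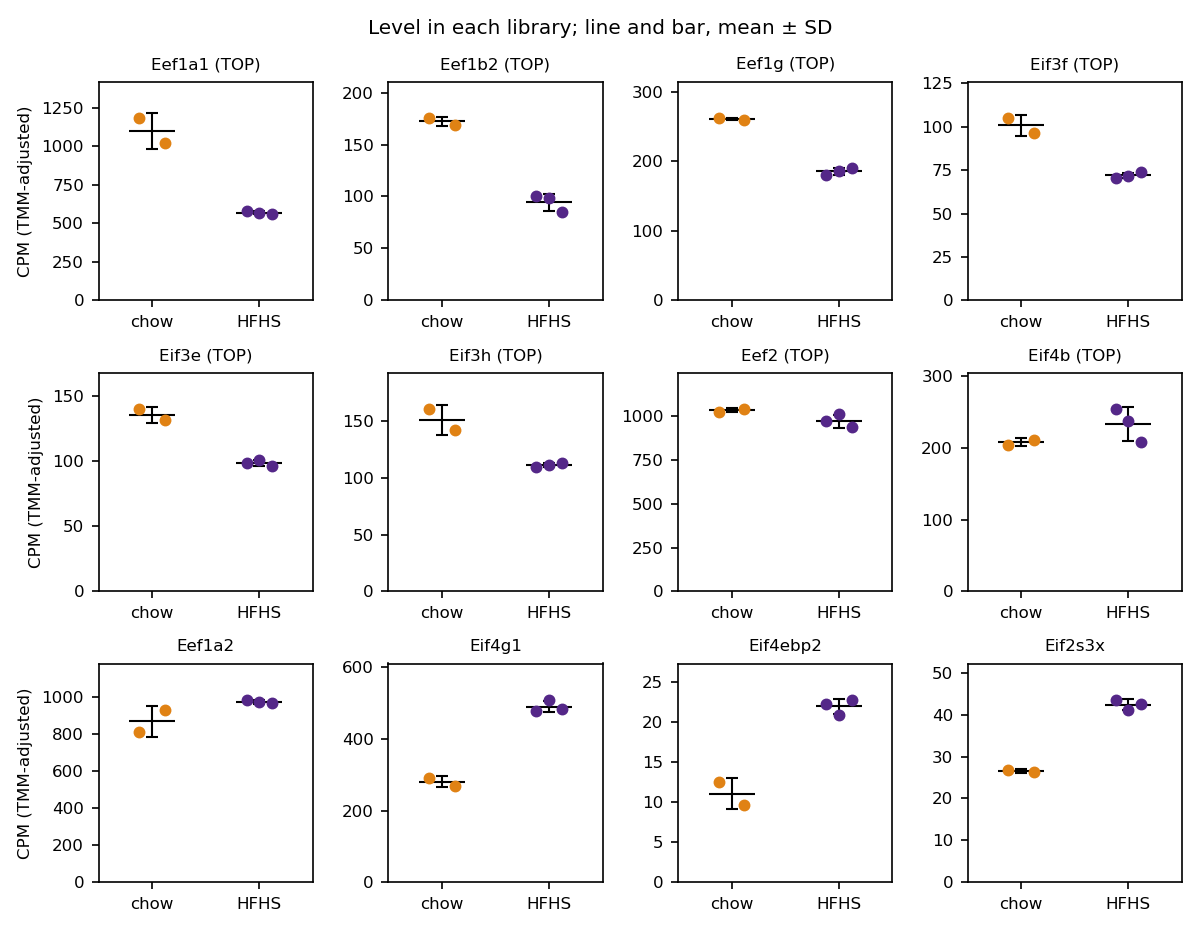
Level of 12 factor genes in each library (vertical axes, TMM-adjusted CPM, from 0; points are libraries, orange for chow and purple for HFHS; lines and bars are mean ± SD). Eef1a1, Eef1b2, Eef1g, Eif3f, Eif3e and Eif3h are lower in every HFHS library than in every chow library, Eif4b overlaps, and Eif4g1, Eif4ebp2 and Eif2s3x are higher in every HFHS library.

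Levels can be compared between genes only per length of exon. That length covers all exons annotated for a gene, not those of the transcript expressed. How reads shared with paralogs or pseudogenes were counted is not given, so the ranking is approximate. In chow hearts Eef1a1 had the highest level of all factors at 441 ± 46.6 CPM per kilobase (SD, n = 2), before Eef1a2 at 417 ± 40.8, Eef2 at 333 ± 3.72 and Eif1 at 271 ± 25.8. The first 2 of these did not differ beyond their spread. In HFHS hearts the order was Eef1a2 at 467 ± 4.47 (SD, n = 3), Eef2 at 313 ± 11.96, Eef1a1 at 228 ± 3.74 and Eif1 at 178 ± 5.28 CPM per kilobase, with no overlap between neighbours. The chow libraries had 1.22 and 0.917 counts per kilobase of Eef1a1 for each of Eef1a2, and the HFHS libraries 0.493, 0.486 and 0.488. The mean ratio was 2.19-fold lower in HFHS hearts.

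Ratios between paralogs in the same library do not depend on how libraries are scaled, and 6 were computed. The ratio of Eif4ebp2 to Eif4ebp1 went from 0.493 and 0.41 in chow to 1.07, 0.908 and 1.05 in HFHS hearts, 2.24-fold higher in the mean. Eif4g1 to Eif4g2 went from 0.46 ± 0.0463 (SD, n = 2) to 0.688 ± 0.0255 (SD, n = 3), Eif4e3 to Eif4e from 0.707 ± 0.00304 to 0.955 ± 0.0636, and Eif2s3x to Eif2s3y from 0.455 ± 0.0727 to 0.658 ± 0.0124. These 4 ratios and that of Eef1a1 to Eef1a2 did not overlap between the groups. Among single genes tested 58.5% did not overlap, and no such share was computed for pairs of genes. The 6 ratios were picked from the paralog sets, and no other pairs were computed. The ratio of the helicase genes Eif4a1 to Eif4a2 overlapped, at 0.488 ± 0.0715 in chow and 0.478 ± 0.0392 in HFHS hearts (exact permutation p 0.9, two-sided). An exact two-sided permutation test of 3 against 2 libraries has 10 splits and cannot go below 0.1, which each of the other 5 ratios reached (0.12 after Benjamini-Hochberg adjustment over the 6).

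**Figure D3:**
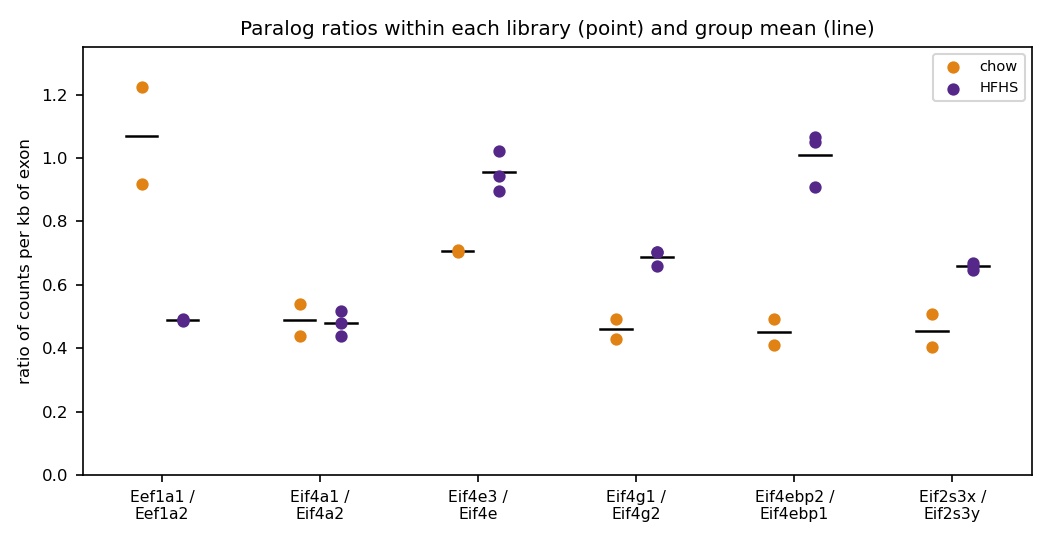
Ratio of counts per kilobase of exon between 2 paralogous factor genes in each library (vertical axis, no unit; orange points chow, purple points HFHS, lines group means). Eef1a1 over Eef1a2 is lower in every HFHS library, Eif4a1 over Eif4a2 overlaps, and the other 4 ratios are higher in every HFHS library.

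The scaffold of eIF3 split into genes that fell and genes that rose. Of its 14 tested genes, 7 were lower, 2 higher and 5 did not pass, with a median log2 fold change of -0.26. The 3 with TOP labels all fell. Eif3f (chromosome 7 from 108934417 to 108942951) was at 105 and 96.5 CPM in chow and 70.7, 71.6 and 73.8 CPM in HFHS hearts, a log2 fold change of -0.48 (SE 0.0751, adjusted p 0.000179). Eif3e was at 140 and 131 CPM in chow and 98.7, 101 and 96.3 CPM in HFHS hearts, a change of -0.46 (adjusted p 0.000199). Eif3h was at 161 and 142 CPM in chow and 109, 111 and 113 CPM in HFHS hearts, a change of -0.45 (adjusted p 0.00037). In all 3 the HFHS libraries sat within a few CPM of each other and below both chow libraries.

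The 2 eIF3 genes that fell most carry no TOP label. Eif3i, a beta-propeller subunit, was at 70.9 and 68.0 CPM in chow and 42.9, 49.3 and 47.4 CPM in HFHS hearts, a log2 fold change of -0.58 (SE 0.0834, adjusted p 9.79e-05). Eif3k, a small subunit at the edge of the complex, was at 69.3 and 66.9 CPM in chow and 43.7, 42.3 and 51.1 CPM in HFHS hearts, also -0.58 (adjusted p 2.00e-04). The chow values of each gene were close together and above all HFHS values. Eif3a, the largest subunit and a core of the complex, rose from 153 and 177 CPM to 237, 225 and 224 CPM, a log2 fold change of 0.48 (SE 0.0793, adjusted p 0.000319). Eif3c, the other core subunit, was at 0.22 with an adjusted p of 0.0434, and its call was lost without HFHS replicate 1 (adjusted p 0.154), HFHS replicate 2 (0.134) or chow replicate 1 (0.204). Of the near-identical copies that encode the loosely bound subunit eIF3j, Eif3j1 was at 0.10 (adjusted p 0.313) and Eif3j2, with under 1 CPM in each library, at 0.90 (SE 0.528, adjusted p 0.201); reads may be shared between them.

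**Figure D4:**
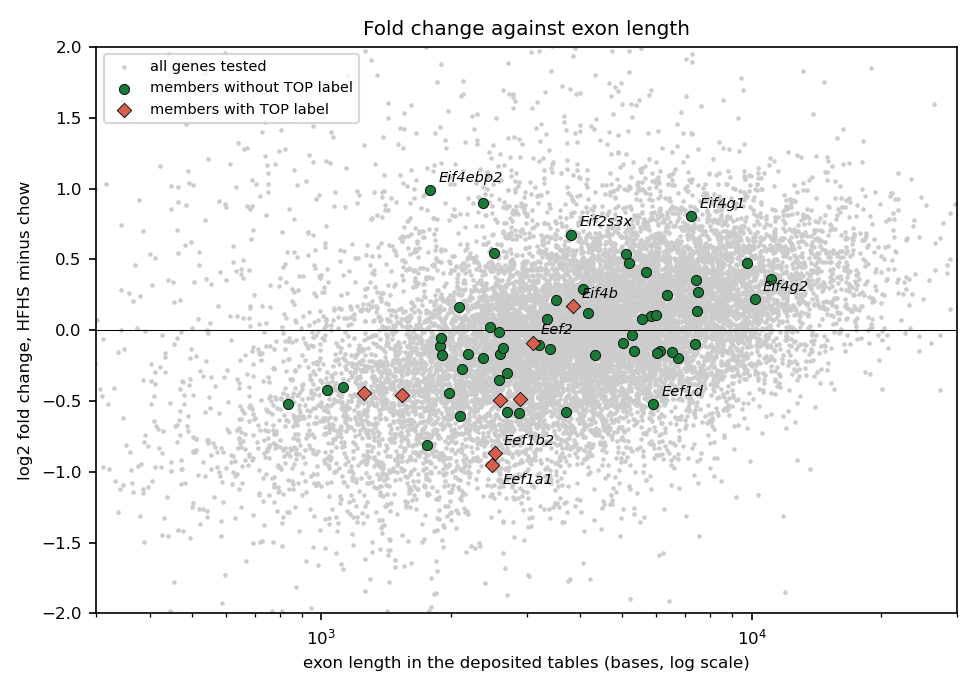
Log2 fold change, HFHS minus chow (vertical axis), against exon length in bases (horizontal axis, log scale) for all tested genes within the axes (grey) and the factor genes (green circles, or red diamonds with TOP label). Fold changes rise with length over all genes, the TOP members lie toward the short side, and Eif4ebp2 and Eef1d lie away from the trend.

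Of 14 tested genes of eIF4 and its binding proteins, 7 were higher, 1 lower and 6 did not pass, with a median log2 fold change of 0.19. With the offsets for exon length and GC content described below, 3 were higher and 2 lower, and the median was 0.02. Eif4g1, the main scaffold of eIF4F (chromosome 16 from 20668313 to 20692884), was at 292 and 270.0 CPM in chow and 479, 509 and 484 CPM in HFHS hearts. All HFHS libraries were far above both chow libraries, and the log2 fold change was 0.80 (SE 0.0716, adjusted p 1.55e-06). Eif4g3, a second scaffold, was at 42.0 and 50.7 CPM in chow and 61.3, 59.6 and 57.7 CPM in HFHS hearts, a change of 0.36 (adjusted p 0.0064) that was 0.23 without chow replicate 1 (adjusted p 0.0832). Eif4g2, a relative that lacks the binding site for eIF4E, was at 832 and 888.5 CPM in chow and 1022, 1018 and 968 CPM in HFHS hearts, a change of 0.22 (adjusted p 0.0189). Its adjusted p rose to 0.0828 without HFHS replicate 1, 0.0923 without HFHS replicate 2 and 0.0855 without chow replicate 1.

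Among the repressors that hold eIF4E away from eIF4G, Eif4ebp2 had the largest rise of any factor past the threshold. This gene (chromosome 10 from 61432497 to 61452669) was at 12.5 and 9.67 CPM in chow and 22.2, 20.9 and 22.7 CPM in HFHS hearts, 1.98-fold higher in the mean. The log2 fold change was 0.99 (SE 0.125, adjusted p 3.39e-05). Eif4ebp1 was at 31.1 and 29.0 CPM in chow and 25.6, 28.3 and 26.6 CPM in HFHS hearts, and its change of -0.16 did not pass (adjusted p 0.186). The test of the difference between these 2 genes is the ratio above.

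Of the cap-binding proteins, Eif4e itself overlapped between the groups, at 0.11 (adjusted p 0.318). Eif4e3, an atypical family member (chromosome 6 from 99625135 to 99666771), was at 46.4 and 40.5 CPM in chow and 67.1, 63.3 and 59.7 CPM in HFHS hearts, a log2 fold change of 0.54 (SE 0.0897, adjusted p 0.000298). The repressive homolog Eif4e2 was at 0.27 (adjusted p 0.0207), with adjusted p of 0.0803, 0.067 and 0.0783 without HFHS replicate 1, HFHS replicate 2 and chow replicate 1. Eif4b, which helps the helicase and carries the TOP label, was at 204 and 212 CPM in chow and 254, 237.5 and 208 CPM in HFHS hearts. The HFHS libraries spread over a wider range than the gap between groups, and the change of 0.17 did not pass (adjusted p 0.135), while it passed at 0.25 without HFHS replicate 3 (adjusted p 0.0212).

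The helicase eIF4A unwinds the 5′ end of the message. Eif4a1 was at -0.17 (adjusted p 0.0918) and Eif4a2, the main form in muscle and brain, at -0.15 (adjusted p 0.115), neither past the threshold; Eif4a1 passed without chow replicate 2 at -0.27 (adjusted p 0.0182). Eif4a3, a part of the exon junction complex and not of eIF4F, was at 40.0 and 36.8 CPM in chow and 32.4, 29.5 and 33.1 CPM in HFHS hearts, a change of -0.28 (adjusted p 0.0281). That call was lost without HFHS replicate 1 (adjusted p 0.058), HFHS replicate 2 (0.125) or chow replicate 1 (0.17).

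Of 7 tested factors classed under scanning and start selection, 3 were lower and none higher, with a median of -0.15. The class was drawn broadly and also held Eif1ad, Eif2a and Eif2d. Eif1, the guardian of start codon choice (chromosome 11 from 100319885 to 100322096), was at 530.1 and 607 CPM in chow and 383, 374 and 361 CPM in HFHS hearts. The HFHS libraries lay close together and far below chow, with a log2 fold change of -0.61 (SE 0.0738, adjusted p 2.35e-05). Its paralog Eif1b changed by -0.40 (adjusted p 0.00398). Eif1a, an autosomal homolog of the X-linked Eif1ax, was at 20.1 ± 0.1 CPM (SD, n = 2) in chow and 16.7, 11.6 and 11.7 CPM in HFHS hearts, a change of -0.58 (SE 0.145, adjusted p 0.00573).

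Of the 9 genes of eIF2 and its exchange factor eIF2B, 1 was higher, 1 lower and 7 did not pass. None of the 5 eIF2B genes passed, with changes from -0.17 to -0.02. Eif2s3x, the X-linked gamma subunit (chromosome X from 94188707 to 94212862), was at 26.8 and 26.3 CPM in chow and 43.5, 41.0 and 42.6 CPM in HFHS hearts. The values within each group were nearly level, and the log2 fold change was 0.67 (SE 0.0872, adjusted p 3.98e-05). Its Y-linked copy Eif2s3y was at 72.4 and 56.6 CPM in chow and 70.8, 69.3 and 70.6 CPM in HFHS hearts, a change of 0.12 that did not pass (adjusted p 0.347). The 3 other Y-linked genes checked (Ddx3y, Kdm5d and Uty) were present in all 5 libraries. Their sum was 120.2 to 127 CPM in HFHS and 87.9 to 93.0 CPM in chow hearts. All 3 were called higher in HFHS hearts, and 1 of them with the length and GC offsets described below. The X-inactivation transcript Xist was at 0.0663 to 0.302 CPM. Reads of the X and Y copies may be shared. Eif2s2, the beta subunit, was at -0.20 with an adjusted p of 0.0421, which rose to between 0.0591 and 0.138 when any 1 library was left out. As the sequences above show, Eif3f, Eif2s3x and Eef1a1 have a pyrimidine run across the annotated start, though Eef1a1 has no C at the start base. Eif3f and Eef1a1 fell, and Eif2s3x rose.

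The 4 kinases that phosphorylate the alpha subunit of eIF2 slow initiation under stress. Eif2ak1, the haem-regulated kinase, was at 26.2 and 25.5 CPM in chow and 33.5, 36.4 and 33.2 CPM in HFHS hearts, a log2 fold change of 0.41 (SE 0.0921, adjusted p 0.00291). Eif2ak2, the kinase activated by double-stranded RNA, was at 13.2 and 10.9 CPM in chow and 19.5, 17.2 and 15.5 CPM in HFHS hearts, a change of 0.54 (SE 0.132, adjusted p 0.00554). Every HFHS value of both genes was above every chow value; for Eif2ak2 the adjusted p was 0.0552 without chow replicate 2. Eif2ak3, the kinase of the endoplasmic reticulum, was at -0.16 (adjusted p 0.407), and Eif2ak4, which senses uncharged transfer RNA, at 0.14 (adjusted p 0.483). Neither passed, and both overlapped between the groups.

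Among the 5 genes of eIF5, eIF5A, eIF5B and eIF6, 2 were higher and none lower. Eif5b, the GTPase that joins the subunits, was at 123 and 124.5 CPM in chow and 176, 175 and 163 CPM in HFHS hearts, a log2 fold change of 0.47 (SE 0.0726, adjusted p 0.00017). Exons of Rev1 on the opposite strand cover 16.85% of its exon bases, and whether the counting used strand is not given. Exons of other genes also cover 32.72% of Eif3d, 23.22% of Eef2kmt, 14.83% of Eif4e3, 13.26% of Eif4a2, 12.71% of Eif1b, 11.62% of Eif2ak1 and 20.15% of Eif3j1. Eif5, which triggers GTP hydrolysis on eIF2, was at 164 and 147.5 CPM in chow and 187, 187 and 196.5 CPM in HFHS hearts, a change of 0.29 (adjusted p 0.00701) that had an adjusted p of 0.0539 without chow replicate 2. Eif5a, the hypusine-carrying factor, was at -0.20 (adjusted p 0.063) and passed at -0.26 without HFHS replicate 3 (adjusted p 0.0136). Its paralog Eif5a2, with 2.0 to 3.68 CPM, was at -0.09 (SE 0.292, adjusted p 0.831).

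Fold changes followed gene length across all genes, with a rank correlation of 0.43 between log2 fold change and exon length, and with 0.466 across the 64 tested factors; these are descriptions, as genes in the same libraries are not replicates. The median exon length was 5670 bases for the 15 higher factors, 2512.5 for the 18 lower and 3346 for the 31 others. Counts were therefore also fitted with offsets that take out, library by library, the trend on exon length and GC content, which took the correlations to 0.028 and 0.014. With offsets, 11 factors were higher and 15 lower, of which 10 and 11 had been called in that direction before; among all 14193 genes then tested 31.1% passed, 14.5% as higher and 16.5% as lower. The median of the factors was -0.04 and that of all genes -0.03.

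**Figure D5:**
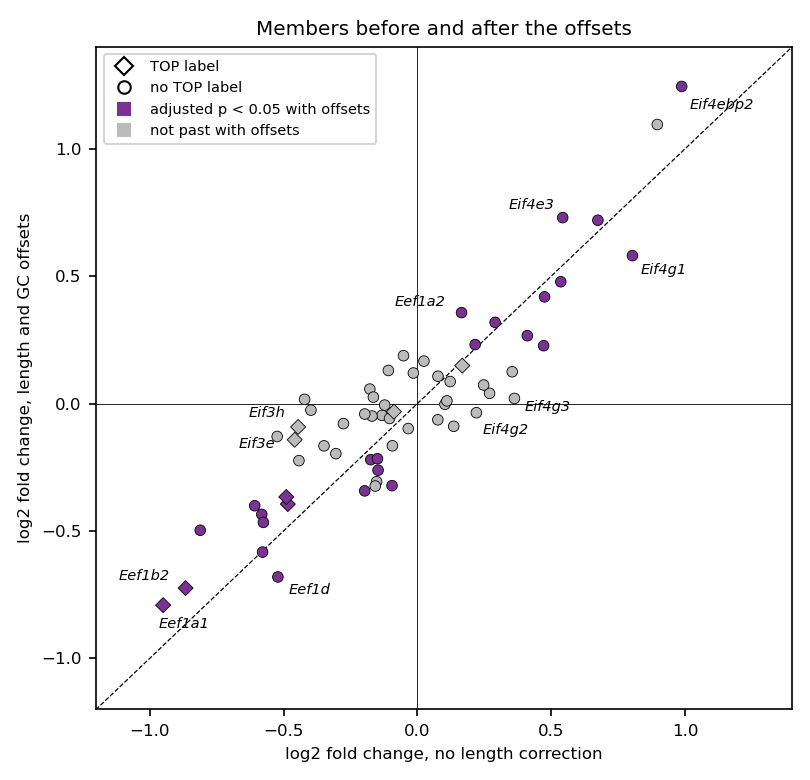
Log2 fold change of each tested factor gene with length and GC offsets (vertical axis) against that without (horizontal axis); diamonds carry the TOP label, purple marks an adjusted p under 0.05 with offsets, and the dashed line marks equal values. Eef1a1, Eef1b2 and Eef1d stay far below 0, Eif4ebp2 and Eif4g1 far above, and Eif3e, Eif3h, Eif4g2 and Eif4g3 lie near 0 on the vertical axis.

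Of the 6 TOP calls, 4 were kept with offsets, Eef1a1 at -0.79 (adjusted p 2.30e-06), Eef1b2 at -0.72 (1.07e-05), Eif3f at -0.39 (0.0011) and Eef1g at -0.37 (0.000864). Eif3e at -0.14 (adjusted p 0.133) and Eif3h at -0.09 (0.355) no longer passed, and the median of the 8 was -0.25. Both are short genes, with 1541 and 1253 exon bases. Eef1d, with 5897 exon bases, was lower still, at -0.68 (1.05e-05). Of the other falls, Eif1 at -0.40, Eif1a at -0.44, Eif3i at -0.58, Eif3k at -0.47, Eif2s2 at -0.34 and Eef1akmt2 at -0.50 still passed, while Eif1b at -0.03, Eif4a3 at -0.08, Eef1akmt1 at -0.13 and the eIF3 genes Eif3g at -0.22 and Eif3m at -0.17 did not. In eIF3 as a whole 3 genes remained lower and 2 higher.

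Among the rises, the changes of Eif4ebp2 at 1.245 (adjusted p 8.00e-06) and Eif4e3 at 0.73 (2.36e-05) were larger with offsets, and that of Eif4g1 was smaller at 0.58 (4.18e-05). Eif2s3x at 0.72, Eif2ak2 at 0.48, Eif3a at 0.42, Eif5 at 0.32, Eif2ak1 at 0.27, Eif5b at 0.23 and Eif3c at 0.23 also passed; with offsets for length alone Eif5b was at 0.19 with an adjusted p of 0.0574. The long genes Eif4g3 at 0.02 and Eif4g2 at -0.04, together with Eif4e2 at 0.04, Eif4enif1 at 0.07 and Eef2k at 0.12, did not. Eef1a2 passed with offsets at 0.36 (adjusted p 0.0028), so that within eEF1 it rose while 4 genes fell. Eif4a1 and Eif4a2 then passed as lower, both at -0.22, as did Eif2a at -0.26 and Eif2d at -0.32. Eif3g, Eif3m, Eif4enif1, Eif2a and Eif2d are named here after their values were seen, to complete the counts.

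The fixed list of 46 genes that act with or on the factors had 19 higher and 8 lower, with a median log2 fold change of 0.10. Over all genes tested 19.4% were higher and 18.7% lower, so the share of lower calls was close to that of all genes. The split of the list was 16 higher and 12 lower when libraries were scaled by total counts. With offsets it was 19 higher and 6 lower, where 14.5% of all genes were higher and 16.5% lower. The 6 with the smallest p all rose. Mtor, the kinase that phosphorylates the 4E-binding proteins, was at 37.7 ± 3.28 CPM (SD, n = 2) in chow and 66.6 ± 1.3 CPM (SD, n = 3) in HFHS hearts, a change of 0.82 (adjusted p 5.42e-06). Its partner Rptor changed by 0.86, its upstream restraint Tsc1 by 0.78 and the TOP-binding protein Larp1 by 0.73 (adjusted p 6.57e-06). The mitochondrial translation factor genes Gfm2 and Gfm1 changed by 0.73 and 0.51. With offsets these were 0.51 for Mtor, 0.46 for Rptor, 0.42 for Tsc1, 0.53 for Larp1, 0.41 for Gfm2 and 0.47 for Gfm1, all past the threshold. Atf4, the transcription factor made when eIF2 is phosphorylated, was picked out after its values were seen. It was at 83.1 and 86.0 CPM in chow and 54.5, 60.7 and 63.5 CPM in HFHS hearts, a change of -0.51 (adjusted p 0.000271), or -0.24 with offsets (0.0274).

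The other genes with TOP mRNAs, chiefly those of ribosomal proteins, give the background for the 8 TOP factors. Of 88 such genes, 85 were lower and 1, Naca, was higher, with a median of -1.05. With offsets 85 were lower and the median was -0.82. The higher call of Naca was not kept with offsets, where 1 other gene of the list was called higher. Rps21 had the smallest p, at 153 ± 3.97 CPM (SD, n = 2) in chow and 52.9 ± 1.71 CPM (SD, n = 3) in HFHS hearts, a change of -1.53 (adjusted p 1.54e-08), followed by Rps20 at -1.42, Rpl41 at -1.30, Rpl26 at -1.28, Rps14 at -1.34 and Rpl35 at -1.29. The fall of Eef1a1 (-0.95) was nearest to that median, Eef1b2 lay at -0.87, the other 4 TOP factors that fell lay between -0.49 and -0.45, and Eef2 and Eif4b lay near 0. Whether the TOP factors differ from the ribosomal protein genes was not tested.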

How the data were processed

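Poly-A enriched RNA of 3 HFHS and 2 chow hearts was analysed from raw counts per gene, as deposited by the authors in a table per library. The submitters' processing notes name Trimmomatic 0.36, STAR 2.5.2b, Subread 1.5.2 with featureCounts, and GRCm38. The sources used here do not give the annotation release, the strand setting or how multimapping reads were treated, so reads of paralogs, pseudogenes and overlapping genes may be shared. Symbols came from GENCODE M21 (GRCm38).

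The test was edgeR 4.0.16 under R 4.3.3 (filterByExpr, TMM, glmQLFit and glmQLFTest on the diet group, all 5 libraries, Benjamini-Hochberg adjusted p of 0.05). Standard errors were approximated by the coefficient over the root of F. Shares and summed markers use total counts. Total counts were 16546113, 14362766 and 15076251 in HFHS replicates 1 to 3 and 17774735 and 17331356 in chow replicates 1 and 2. Chi-square per degree of freedom between the counts of 2 libraries was 2.64 to 5.71 between HFHS libraries, 8.84 between chow libraries and 47.5 to 62.5 between groups.

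Members and lists were chosen with earlier results of these data known. Named genes were the TOP members, paralog sets, kinases, the 3 members with the largest rise and fall past the threshold in each role, and the 6 genes with the smallest p in each other list. Alternatives were other scalings, DESeq2 1.42.0, limma-voom (limma 3.58.1), other filters, mitochondrially encoded genes left out, each library left out, a replicate block, offsets from smooth trends (mgcv 1.9.3), a threshold of 0.01, and TOP members set by the start sequence. Tested on simulated data of 13956 genes for 3 HFHS against 2 chow libraries, the fit recovered 12%, 40%, 74% and 96% of genes changed by 1.25, 1.5, 2 and 4 fold, and 7.5% of its calls were false. A second simulation added a length trend of a set size to the HFHS counts of all genes. There 95.5% of calls were false without offsets (13842 genes) and 10.4% with them (13818 genes). Only 200 genes were changed in each simulation, and the false shares depend on these settings. They do not estimate the share of false calls in the real data. Over all genes of the real data, 1720 of 2756 higher calls and 1771 of 2661 lower calls were kept with offsets.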

Additional observations from a re-analysis of the deposited data

How the results depend on the processing

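The count of factors past the threshold was 33 and ranged from 27 to 33 when 1 library was left out. With total-count scaling 28 factors were lower, against 18 with TMM, 21 of them without the TOP label, against 12. Among the partner genes, 8 lower calls became 5 with DESeq2, 5 at a threshold of 0.01 and 4 to 8 with a library left out. The count of higher TOP factors, 0 with TMM, was 0 to 1 with a library left out and 1 with the replicate number as a block, in both cases Eif4b; the count of other higher TOP genes was 0 to 1 with a library left out. With TOP members set by the start sequence there were 2, both past the threshold, 1 higher and 1 lower. The correlations of deviations between same-numbered libraries were 0.0348 and 0.0258 over 2 pairs, so the numbers were not taken as pairing; with the replicate block 35 factors passed. The direction of single genes turned with length and GC offsets and with length offsets for Eif4g2 (-0.036 and -0.073), Eif4ebp1 (0.025 and 0.033), Eif3j1 (-0.0030 and -0.032) and Eif2ak4 (-0.090 and -0.072), and with length offsets for Eif4e (-0.035). With a library left out, Eif5a2 ranged from -0.47 to 0.41 and Eif2s3y from -0.045 to 0.31. The cause was not tested. Over all alternatives of the single named genes, 807 kept direction and side of the threshold, 50 fell below it, 23 rose past it and 12 turned. A turn was counted only as such, also where the call was lost, as for Eif4g2 with both kinds of offsets. Depth limits the genes with the lowest levels, Eif3j2 and Eif5a2 among them.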
